A study of Mus musculus with 6 samples.

Results

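The 10 genes described here are the granzymes Gzma, Gzmb and Gzmk, the pore-forming protein Prf1, the granule membrane protein Nkg7, the cysteine protease Ctsw, the natural killer (NK) receptors Klrd1, Ncr1 and Klrb1c, and the T-box transcription factor Eomes, which NK and memory CD8 T cells need. They were taken by name from a table of 40808 Entrez gene IDs. They were chosen by the measured counts of Gzma, high in the libraries without Dox and 0 in those with Dox, and by what the other genes are known for. The difference between the groups is therefore given as a description and without a test. Cytotoxic lymphocytes kill through granules. Perforin opens the membrane of the target cell, and granzymes, a family of serine proteases, enter and cleave proteins there. NK cells and activated CD8 T cells are the classic users of this machinery, and NK cells also carry lectin-like and immunoglobulin-like receptors that decide when granules are released.

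The data are mRNA 3′-end libraries of mouse spleen, 3 without Dox (replicates 4, 5 and 6) and 3 with Dox (replicates 10, 11 and 12). The labels describe the RNA as coming from leukaemia cells in the spleen of mice given a bone marrow transplant. Every group shares that background, and the study's title places the work in the control of NOTCH by UVRAG and ITCH. Genotype, strain, sex, age, the driver of the leukaemia, the gene under Dox control, the dose and its duration are not given in the sources used here. Nor do the labels say whether a library is 1 animal or a pool, so p-values measure the spread between these libraries.

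Total counts ran from 5541486 to 8725767 per library. The libraries with Dox were noisier at low counts. Where the mean of a gene in its group lay between 10 and 20 counts, 57.7% of genes had at least 1 library at 0 with Dox. Without Dox, 1.94% did. For means between 20 and 50 counts, these shares were 14.0% and 0%. A single 0 in a Dox library therefore carries little information for genes with means under 20 counts, and more for those above. Sex-linked RNA followed the groups as well: 4 Y-linked genes together had 545 to 801 counts in each library without Dox and 0 in each library with Dox, while Xist ranged over 193 to 324 and 3347 to 5669 counts. The effect of Dox and a difference in sex, whether of the mice or of the transplanted cells, cannot be told apart here. In bulk RNA, fewer cells of a type and less RNA per cell cannot be told apart either. All levels are normalized CPM: a count divided by the size of its library, with the size adjusted by TMM for differences in composition. Since 3′-end libraries give about 1 fragment per transcript whatever its length, CPM was compared between genes without a length correction. Other differences between genes in how their reads are captured and assigned were not checked.

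Promoter sequences of Gzma, Gzmb and Prf1 are shown because these 3 genes encode the proteases and the pore of the same granule, yet had very different levels in the same libraries. Each runs 5′ to 3′ on the gene's strand from 250 bases before to 50 bases after a RefSeq start site (GRCm38.p6), and capitals mark the motif matches described next. Gzma is on the minus strand at chr13:113100932-113101231, Gzmb on the minus strand at chr14:56262285-56262584, and Prf1 on the plus strand at chr10:61297586-61297885.
Gzma: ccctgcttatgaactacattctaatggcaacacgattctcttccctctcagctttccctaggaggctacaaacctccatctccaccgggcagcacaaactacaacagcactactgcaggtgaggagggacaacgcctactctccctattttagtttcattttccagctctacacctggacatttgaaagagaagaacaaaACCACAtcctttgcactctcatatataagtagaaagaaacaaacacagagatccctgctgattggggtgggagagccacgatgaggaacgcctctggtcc
Gzmb: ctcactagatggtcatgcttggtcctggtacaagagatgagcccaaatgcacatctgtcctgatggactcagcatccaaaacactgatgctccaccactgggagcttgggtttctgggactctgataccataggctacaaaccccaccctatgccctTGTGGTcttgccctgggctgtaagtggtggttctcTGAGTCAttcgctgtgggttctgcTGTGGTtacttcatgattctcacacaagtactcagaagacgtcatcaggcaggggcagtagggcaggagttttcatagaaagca
Prf1: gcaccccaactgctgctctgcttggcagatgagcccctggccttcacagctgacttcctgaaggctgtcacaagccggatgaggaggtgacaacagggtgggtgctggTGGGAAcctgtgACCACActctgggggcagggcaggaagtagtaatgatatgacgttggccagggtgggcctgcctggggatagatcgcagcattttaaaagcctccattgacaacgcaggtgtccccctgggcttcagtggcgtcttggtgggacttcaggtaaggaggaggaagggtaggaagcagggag
6 motifs were searched on both strands: a T-box core (TCACACC), a RUNX site (TGTGGT), an ETS site (CGGAAG), an RBPJ site (TGGGAA), a cyclic AMP response element (TGACGTCA) and an AP-1 site (TGANTCA). Promoters were found for 8 of the 10 genes. The RUNX letters were in the promoters of 6 of these 8 genes, Gzma, Gzmb, Prf1, Nkg7, Ncr1 and Klrb1c, and in 16.8% of the 32851 promoters of the table. In Gzma the single match began 50 bases before the start site. Gzmb had matches at 93 and 34 bases before it and an AP-1 match at 58 bases (7.81% of all promoters). Prf1 had a RUNX match at 130 bases and an RBPJ match at 142 bases, the RBPJ letters being in 25.6% of all promoters. The T-box letters were in the promoters of Gzmk and Nkg7 and in 3.98% of all promoters. The ETS and cyclic AMP letters were in none of the 8. Only the exact letters given were searched, so other forms of these sites were not counted. No 2 matches overlapped in the sequences shown, and a match is a description of letters, not of binding.

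Gzma was the only one of the 10 genes that was abundant in any library. Granzyme A is a trypsin-like protease found in NK cells and in subsets of T cells, and its gene (Entrez 14938) spans chr13:113093824-113100981. Without Dox its level was 352, 341 and 395 CPM in replicates 4, 5 and 6, from 2356, 1683 and 2331 counts. With Dox it had 0 counts in all 3 libraries, which allows up to 0.408, 0.309 and 0.395 CPM (3 counts per library, counting error only). The groups are far apart, and the 3 libraries without Dox lie close together, at 363 ± 28.7 CPM (SD, n = 3). Against a floor of 3 counts in each Dox library, Gzma was at least 978-fold lower with Dox. That floor, here and in every such fold given for other genes, covers counting error only. Counts varied more than that, with a variance-to-mean ratio of 15.6 with Dox and 4.69 without Dox. With the floor multiplied by the ratio for Dox, a choice made after seeing the data, Gzma was at least 62.9-fold lower. In the libraries without Dox it ranked 449, 469 and 399 among all genes by count, within the top 2.14%, 2.32% and 2.20% of the genes with counts. The gene's span overlaps that of Cdc20b, which had 8 to 9 counts in the libraries without Dox and 0, 14 and 0 with Dox.

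**Figure D1:**
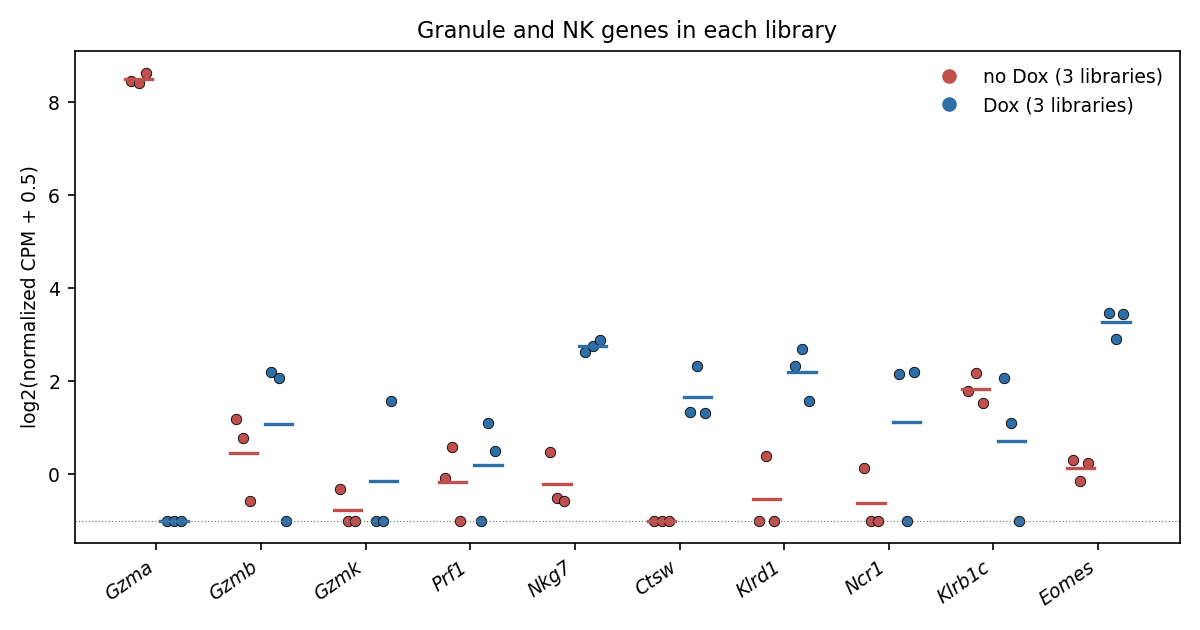
Level of each of the 10 genes in each library, as log2 of normalized CPM plus a pseudocount of 0.5, with bars at the group mean of the log values and a dotted line at 0 CPM. Gzma sits at 341 to 395 CPM without Dox and at 0 with Dox, while no other gene passes 10.6 CPM in any library.

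The other granule genes did not follow Gzma. Gzmk, whose gene lies 70.6 kb from Gzma on chromosome 13 (113171630-113180965), was read 2, 0 and 0 times without Dox, against 0, 0 and 19 times with Dox. All of its reads with Dox came from replicate 12. Gzmb, the granzyme that cleaves after aspartate and activates caspases (chr14:56258836-56262334), had 1.79, 1.22 and 0.170 CPM without Dox and 4.08, 3.71 and 0 CPM with Dox. Its groups overlapped, because replicate 12 had no counts while the other 2 Dox libraries were above every library without Dox. Prf1, which encodes perforin (chr10:61297751-61304684), was read 3, 5 and 0 times without Dox, against 0, 16 and 7 times with Dox, and the groups overlapped. In the libraries without Dox, then, a gene at 363 CPM for granzyme A stood beside perforin at 0.487 ± 0.508 CPM and granzyme B at 1.06 ± 0.822 CPM (SD, n = 3 each).

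Nkg7 and Ctsw, the remaining granule genes, were higher with Dox. Nkg7, a membrane protein of cytotoxic granules needed for their release (chr7:43437138-43438246), had 0.895, 0.203 and 0.170 CPM without Dox and 5.72, 6.28 and 6.85 CPM with Dox. The groups did not overlap, and the Dox libraries were close to one another. Ctsw, a papain-like protease of NK and CD8 T cells (chr19:5465043-5468628), had 0 counts in each library without Dox, against 15, 44 and 15 in the libraries with Dox. That is at least 5.46-fold higher with Dox, against a floor of 3 counts in each library without Dox, and 1.16-fold with that floor multiplied by the variance-to-mean ratio. The span of Ctsw narrowly overlaps that of Fibp, which had 46 to 56 counts without Dox and 67, 0 and 46 with Dox. Its 0 was in replicate 11, the library with the most Ctsw counts.

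Of the 3 NK receptor genes, Klrd1 separated the groups. Klrd1 encodes CD94, the partner chain of NKG2 receptors (chr6:129588092-129598775). It had 0, 0.811 and 0 CPM without Dox and 4.49, 5.97 and 2.50 CPM with Dox, so that every Dox library was above every library without Dox. Its fitted log2 fold change was 4.03 ± 1.32 (SE), and 8.0 without replicate 5, the only library of its group with a count; with the rest of that group at 0 the fitted value is no bound. Ncr1, which encodes the activating receptor NKp46 (chr7:4337715-4345184), was read 4, 0 and 0 times without Dox, against 29, 0 and 31 times with Dox. The groups overlapped through Dox replicate 11. Klrb1c, which encodes NK1.1 (chr6:128778485-128788641), had 2.98, 4.05 and 2.37 CPM without Dox and 3.67, 1.65 and 0 CPM with Dox. It was the member with the highest level without Dox after Gzma, and its groups overlapped. Klrb1c has close relatives in the same cluster, so its counts depend on how shared reads were assigned.

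Eomes, the transcription factor of the set (chr9:118478186-118486132), was the highest of the 10 genes with Dox. It had 0.746, 0.405 and 0.678 CPM without Dox and 10.6, 7.0 and 10.4 CPM with Dox. These rest on 2 to 5 reads and 68 to 79 reads per library. The groups did not overlap, and the fitted log2 fold change was 3.88 ± 0.64 (SE). Eomes overlaps the lncRNA gene Gm33408, which had 11 counts in Dox replicate 12 and 0 in the other libraries. Nkg7 had a fitted log2 fold change of 3.79 ± 0.87 (SE), or 4.92 without replicate 4. Gzmb had one of 1.28 ± 1.37 (SE) and Klrb1c -0.82 ± 1.17 (SE). For Gzmb and Klrb1c the SE was larger than the change.

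The 9 genes besides Gzma, summed, gave 7.76, 7.70 and 3.39 CPM without Dox and 34.6, 30.8 and 29.3 CPM with Dox, a level that was higher in each Dox library. Gzma alone made up 97.8%, 97.8% and 99.1% of the counts of the 10 genes without Dox, and 0% with Dox. Of the 9, 8 had a higher mean with Dox, 4 of them with groups that overlapped, and Klrb1c had a lower one. Of the 10, 7 had enough counts to enter the fit over all genes, and Gzmk, Prf1 and Ncr1 did not. Among all 10, 4 had non-overlapping groups with Dox higher (30.0% of all tested genes) and 1, Gzma, with Dox lower (29.6%). The choice of genes rests on this same contrast, so these counts describe the members and support nothing.

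**Figure D2:**
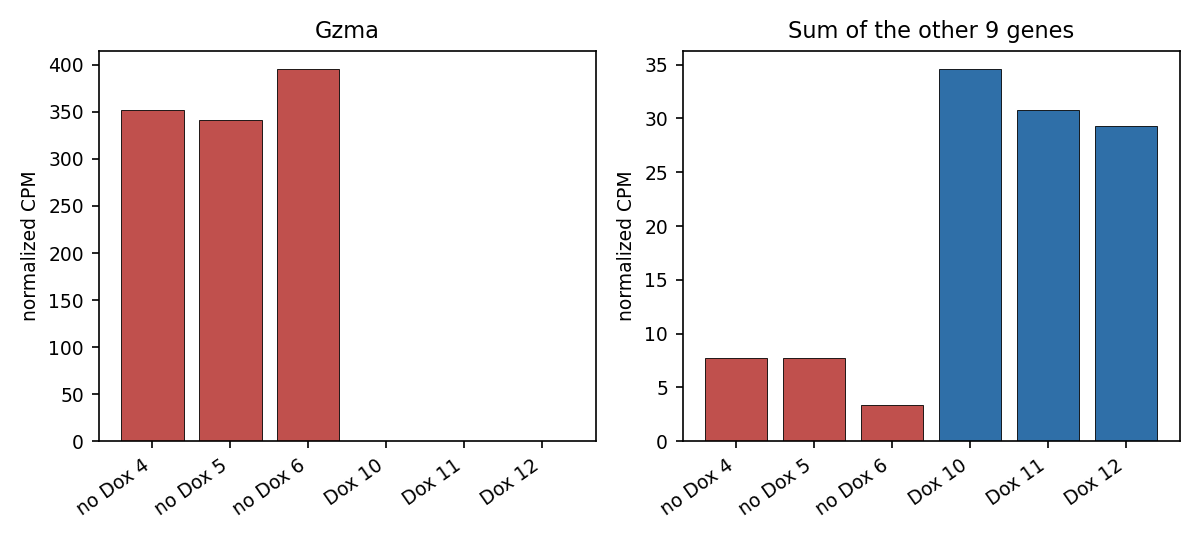
Normalized CPM of Gzma (left) and the sum of the other 9 genes (right) in each library, 1 bar per library and each axis starting at 0. Gzma is present only in the libraries without Dox (341 to 395 CPM), and the sum of the others is larger in the libraries with Dox (29.3 to 34.6 against 3.39 to 7.76 CPM).

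Genes with the pattern of Gzma were few at its level, and since Gzma was chosen for these values, its place among them supports nothing. A total of 434 genes, Gzma included, had a mean without Dox at least as high as Gzma, and Gzma was the 1 gene among them with 0 counts in every Dox library. Ranked by the lowest level without Dox among genes with 3 counts or fewer in each Dox library, Gzma came first, 3.34 times above the next gene. That gene was Ighe, the constant region of immunoglobulin E, at 110 ± 8.05 CPM without Dox (SD, n = 3). It was followed by 1500009L16Rik (64.2 ± 5.16 CPM), the Y-linked helicase gene Ddx3y (46.6 ± 1.39 CPM), the MHC class I gene H2-Q2 (45.7 ± 5.09 CPM) and the Y-linked initiation factor gene Eif2s3y (35.9 ± 1.64 CPM, SD, n = 3 each). The other 5 were D430041D05Rik, Gm3521, the homeobox gene Emx2, A930003A15Rik and Gm8909, at means of 29.4 to 39.8 CPM without Dox. D430041D05Rik had 1 count in Dox replicate 10, and the others of these 10 genes had 0 with Dox. Ighe, H2-Q2 and Gm8909 belong to families of similar genes and are uncertain for that reason. In all, 262 genes had over 3 counts in each library without Dox and 3 or fewer in each with Dox.

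**Figure D3:**
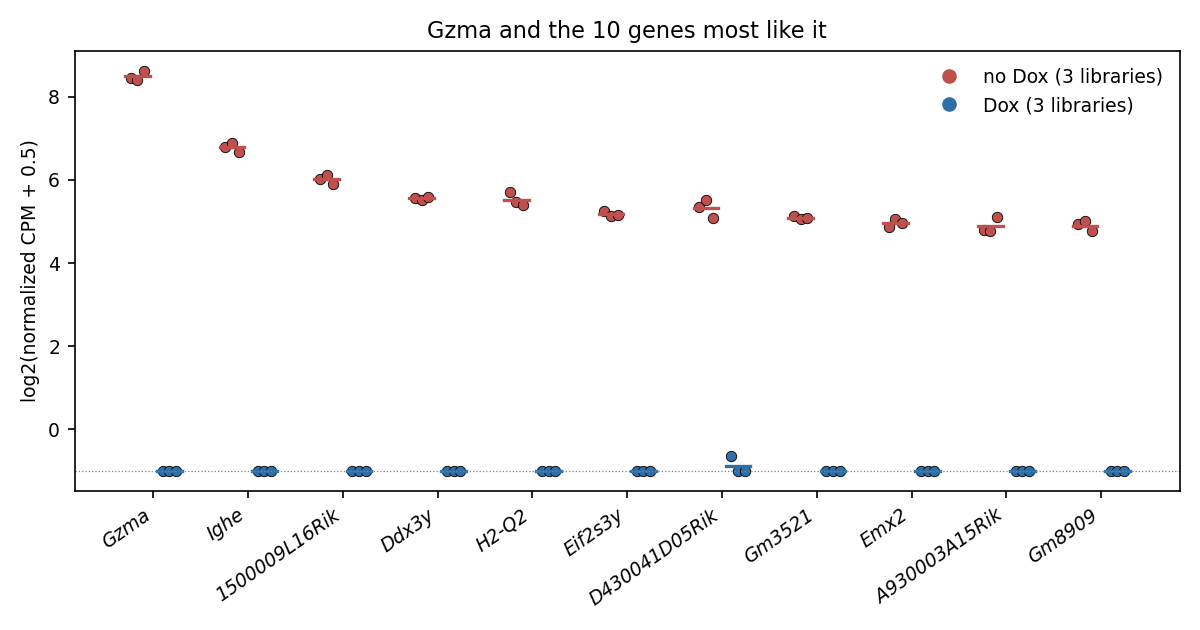
Level of Gzma and of the 10 genes ranked most like it in each library, as log2 of normalized CPM plus 0.5, with bars at the group mean of the log values and a dotted line at 0 CPM. All 11 genes are at or next to 0 CPM in the Dox libraries, and Gzma is the highest without Dox, at 341 CPM or more.

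Within 500 kb of Gzma, 24 other genes were in the table, 7 of them with enough counts to be tested. Of these 7, 2 rose with Dox (Slc38a9 and Snx18) and 2 fell (Mtrex and Dhx29), by the edgeR quasi-likelihood test (Benjamini-Hochberg), shares near those over all tested genes (23.6% and 22.1%). Mtrex, an RNA helicase of the nuclear exosome and the most abundant of the 7, went from 227 to 132 CPM, a log2 fold change of -0.78 ± 0.21 (SE, adjusted p = 0.0132). Around Gzmb on chromosome 14, where granzymes sit beside mast cell proteases and cathepsin G, 13 other genes were tested, of which 5 rose and 2 fell against those same shares, some of them in the protease list described further on. Around Klrd1 on chromosome 6, 9 other genes were tested, of which 7 rose, where 23.6% of all tested genes did. The 7 were Clec2d, 2310001H17Rik, Clec12a, Clec9a, Clec7a, Olr1 and Gabarapl1. Clec12a, Clec9a and Clec7a encode lectins of myeloid and dendritic cells. The Klr genes in this window other than Klrd1 had too few counts to be tested.

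To set the members in their pathway, 9 further lists of granule, receptor, signalling and transcription factor genes were counted in the same fit, 164 genes in the table and 115 of them tested. Of the 115, 40 (34.8%) were called higher and 33 (28.7%) lower with Dox, where 23.6% and 22.1% of all tested genes were, and the median log2 fold change was 0.11, against 0.07 over all tested genes. Scaling by library size alone raised the median of all genes from 0.07 to 0.38, so small changes are relative to that. The lists were written from general knowledge, with earlier results of these data known. Calls in each list below are to be read against the shares of 23.6% and 22.1% over all tested genes.

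Relatives of the granzymes were at low levels. Of 14 other granzyme and mast cell protease genes, 4 had 0 counts everywhere and 4 were tested. Cathepsin G (Ctsg), a protease of neutrophil granules, had 0 to 0.203 CPM without Dox and 4.48 to 7.82 CPM with Dox, at least 11.7-fold higher (adjusted p = 0.0016, edgeR). Mcpt8, a basophil protease, rose from 1.15 ± 0.73 to 19.5 ± 10.1 CPM (SD, n = 3 each), or 4.03 ± 0.61 on the log2 scale (SE, adjusted p = 0.0005, edgeR). Mcpt2, a mucosal mast cell protease, went the other way, with 18, 12 and 27 counts without Dox and 0 in each Dox library (adjusted p = 0.0042, edgeR). No fold is given for it, since a floor multiplied by the variance-to-mean ratio of the Dox libraries exceeds its level without Dox. These are the 2 genes of the list that rose and the 1 that fell (median log2 fold change 0.86, or 0.62 with Ctsg and Mcpt2 set against the 3-count floor).

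Of 12 genes that mature and contain granule proteases, 11 were tested, 3 rose (27.3%) and 1 fell (9.09%), with a median log2 fold change of -0.11. Calr, a calcium-binding chaperone that is also stored in cytotoxic granules, went from 393 ± 18.0 to 796 ± 235 CPM (SD, n = 3 each), or 1.02 ± 0.20 on the log2 scale (SE, adjusted p = 0.0024, edgeR). Ctsh, an aminopeptidase of lysosomes, rose by 1.58 ± 0.26 in log2 units (SE, adjusted p = 0.00078), and Lamp1, the lysosome membrane protein exposed on degranulation, by 0.59 ± 0.18 (SE, adjusted p = 0.025). The Lamp1 call was lost without any 1 of replicates 4, 5, 6, 10 and 11, with adjusted p-values up to 0.169. Serpinb6b, a protease inhibitor, fell by 1.10 in log2 units (SE 0.30, adjusted p = 0.014, edgeR). With scaling by library size alone its adjusted p was 0.052. Ctsc, the dipeptidase that activates granzymes, was at 88.4 ± 5.8 and 103 ± 6.2 CPM (SD, n = 3 each; adjusted p = 0.28, edgeR). Srgn, the proteoglycan that packs granules, was at 169 ± 22.7 and 138 ± 21.3 CPM (adjusted p = 0.22). Neither passed the threshold; Ctsc and Srgn were named after their values were seen.

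Genes for moving and releasing granules were split. All 20 were tested, 6 rose (30%) and 3 fell (15%), where 23.6% and 22.1% of all tested genes did (median log2 fold change 0.40). Lyst, the lysosome trafficking regulator mutated in Chediak-Higashi syndrome, rose from 25.1 ± 8.9 to 146 ± 22.3 CPM (SD, n = 3 each), or 2.53 ± 0.27 on the log2 scale (SE, adjusted p = 5.38e-05, edgeR). Sytl3, a synaptotagmin-like Rab27 effector, had 31.6, 20.5 and 24.4 CPM without Dox and 0.680, 0 and 1.45 CPM with Dox, with a log2 fold change of -5.20 ± 0.75 (SE, adjusted p = 0.00038). It was -6.34 without Dox replicate 12 and -4.58 without Dox replicate 11. The small GTPase Rab27a, its partner at the granule membrane, fell as well, from 49.3 to 18.9 CPM (log2 fold change -1.38 ± 0.25 (SE), adjusted p = 0.0015), and was named after its value was seen. Kif5b, a kinesin motor, and Coro1a, an actin regulator, were the most abundant of the list by the mean over all 6 libraries. Kif5b was at 291 ± 17.2 and 298 ± 74.8 CPM and Coro1a at 146 ± 22.4 and 148 ± 50.9 CPM (SD, n = 3 each), with adjusted p-values of 0.893 and 0.961 (edgeR).

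Among 14 cytokine, chemokine and death ligand genes, 6 were tested, 3 rose and 1 fell (median log2 fold change 1.52). Ccl5, a chemokine of effector lymphocytes, had 1.64, 2.23 and 4.24 CPM without Dox and 35.5, 56.7 and 52.3 CPM with Dox (log2 fold change 4.15 ± 0.40 (SE), adjusted p = 3.02e-05, edgeR). Ltb, lymphotoxin beta, rose by 1.92 ± 0.25 in log2 units (SE, adjusted p = 0.00021), and Lta, lymphotoxin alpha, was at least 23.2-fold higher with Dox (adjusted p = 0.00029). Both lymphotoxins are also made by B cells. Tnfsf10, the death ligand TRAIL, fell by 2.78 in log2 units (SE 0.98, adjusted p = 0.041, edgeR), a call that was lost without replicate 4, 5, 6 or 12. Its log2 fold change was -4.35 without Dox replicate 10 and -2.19 without Dox replicate 11. Ifng, the main cytokine of NK cells, had at most 3 counts in any library, and was named after its values were seen.

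The lectin-like and Ly49 receptor genes of the NK complex were barely detected. Of 24, 5 had 0 counts everywhere and 17, these 5 included, stayed under 5 CPM in every library. Their summed level was 2.54 to 10.5 CPM without Dox and 24.3 to 47.4 CPM with Dox, and 16 had a higher and 3 a lower mean with Dox. Klrc1, which encodes NKG2A, the partner of CD94, had 0 counts without Dox and 97, 20 and 10 with Dox, a level at least 10.6-fold higher. Without Dox replicate 10, which held most of these counts, it was at least 3.24-fold higher. Klrb1f was read 4, 2 and 4 times without Dox, against 44, 3 and 67 times with Dox, and its groups overlapped. Only Klra1 was tested, and 0 genes of this list were called higher or lower by edgeR, 0 at an unadjusted p under 0.05 and 0 by DESeq2. Each of the 6 fits that left out a library called 1 gene of the list higher, or 2 without Dox replicate 12. These genes are close copies of each other, so their counts depend on how shared reads were assigned.

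Other surface receptors of NK cells moved in both directions. Of 19, 17 were tested, 7 rose and 7 fell (median log2 fold change -0.16). The 7 that rose were Cd244a, Slamf7, Cd226, Cd7, Itga1, Itga2 and Itgam. Cd7 was at least 17.7-fold higher with Dox, with 0 to 1 counts in each library without Dox (adjusted p = 0.00065, edgeR). The 7 that fell were Slamf6, Cd160, Fcgr3, Itgal, Spn, Cd27 and Thy1. Thy1, a marker of T cells and of their progenitors, had 492, 457 and 443 CPM without Dox and 9.80, 4.12 and 12.8 CPM with Dox (log2 fold change -5.72 ± 0.37 (SE), adjusted p = 3.30e-06). Spn, the lymphocyte sialoprotein CD43, fell by 0.92 in log2 units (SE 0.18, adjusted p = 0.0022).

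Receptor signalling genes also moved in both directions. Of 18, 17 were tested, 3 rose (Syk, Plcg2 and Ptpn6) and 5 fell (Cd247, Sh2d1a, Sh2d2a, Zap70 and Lck). These were 17.6% and 29.4% of the tested genes, against 23.6% and 22.1% over all tested genes, with a median log2 fold change of -0.16. Syk, a kinase of B and NK cell receptors, had 10.3, 12.2 and 11.4 CPM without Dox and 179, 178 and 122 CPM with Dox (log2 fold change 3.82 ± 0.23 (SE), adjusted p = 2.58e-06, edgeR). Lck, the kinase that starts T cell receptor signalling, fell by 2.91 in log2 units (SE 0.21, adjusted p = 5.50e-06). Sh2d1a, which encodes the adaptor SAP of T and NK cells, had 119, 99.5 and 87.5 CPM without Dox and 1.5, 0 and 1.32 CPM with Dox (log2 fold change -6.83 ± 0.59 (SE), adjusted p = 1.67e-05), or -6.19 without Dox replicate 11. Ptpn6, the phosphatase that inhibitory NK receptors recruit, rose by 1.43 ± 0.17 in log2 units (SE, adjusted p = 0.00013).

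Of 23 transcription factors of NK and effector cells, 22 were tested, 9 rose and 10 fell (median log2 fold change -0.22). Bach2, a repressor of B and T lymphocytes, rose from 14.7 ± 1.1 to 279 ± 17.8 CPM (SD, n = 3 each), with an adjusted p of 5.37e-07 (edgeR). Tbx21, the T-box factor that acts beside Eomes, was at 0.709 ± 0.37 and 5.87 ± 2.10 CPM (log2 fold change 3.04 ± 0.81 (SE), adjusted p = 0.012), and was named after its value was seen. Tcf7, a factor of T cell progenitors, went from 683 ± 87.6 to 13.5 ± 9.6 CPM (log2 fold change -5.67 ± 0.45 (SE), adjusted p = 9.99e-06), or -6.41 without Dox replicate 12. Ets1 was the second most abundant of the list by the mean over all 6 libraries, and fell by 0.51 in log2 units (SE 0.14, adjusted p = 0.014). With scaling by library size alone its adjusted p was 0.278.

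Of 21 cytokine and homing receptor genes, 17 were tested, 7 rose and 5 fell (median log2 fold change 0.40). Il12b, a subunit of the cytokine that activates NK cells, had 0 counts without Dox and 61, 126 and 30 with Dox, at least 16.1-fold higher (adjusted p = 0.00097, edgeR). Il12rb2, a chain of its receptor, fell from 46.6 ± 5.8 to 7.33 ± 1.99 CPM (SD over 3 libraries per group), with an adjusted p of 6.58e-05 by edgeR. Il2rg, the common gamma chain of the receptors for interleukins such as IL-15, fell by 1.05 in log2 units (SE 0.23, adjusted p = 0.0046).

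**Figure D4:**
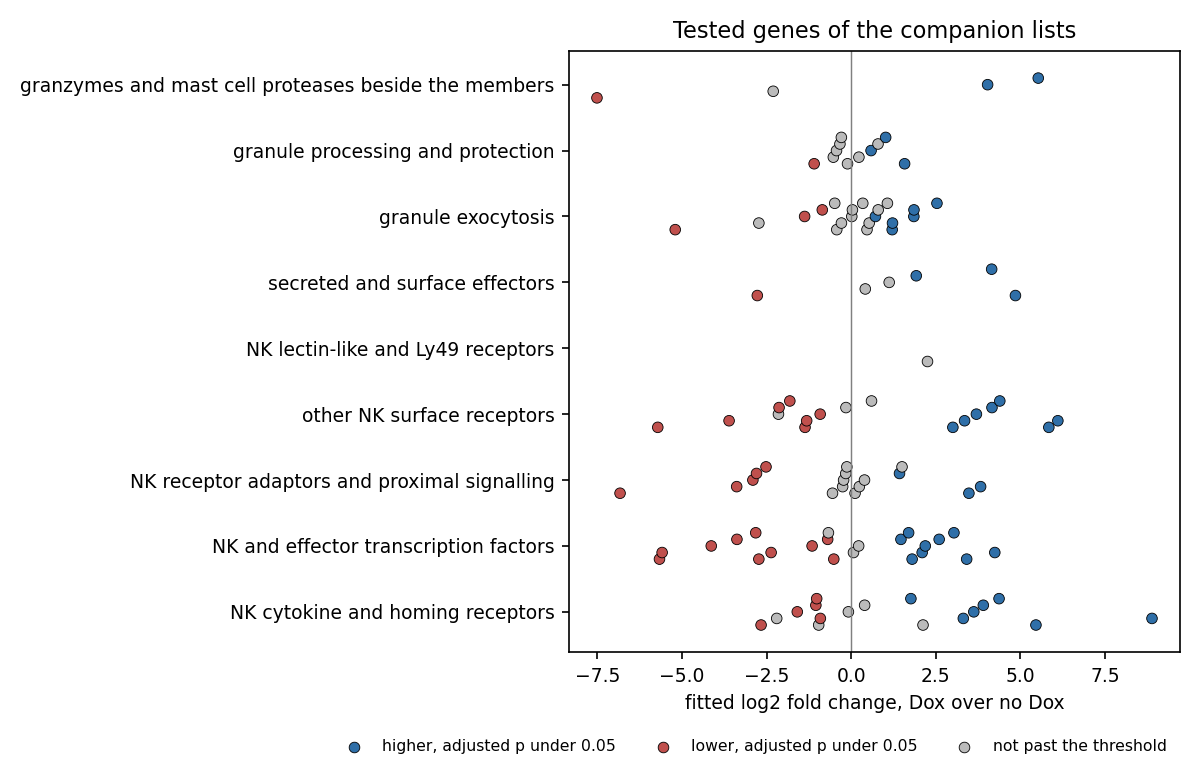
Fitted log2 fold change (Dox over no Dox) of each tested gene of the 9 lists, 1 point per gene, coloured by the edgeR call at an adjusted p of 0.05. Every list with at least 4 tested genes has calls in both directions; for genes at or near 0 counts in 1 group, such as Mcpt2, Ctsg and Il12b, the fitted value is not a bound.

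Markers of cell types were read beside these results, with the same shares of all tested genes as background (23.6% higher and 22.1% lower). Genes said to lead a marker list had its highest means over all 6 libraries. The 14 NK markers that are not among the 10 genes summed to 88.2 to 113 CPM without Dox and 77.1 to 110 CPM with Dox, ranges that overlap. Of the 6 that were tested, Tbx21 was called higher, as given above. Most of that sum came from genes other cells also express: Tyrobp (40.0 and 33.6 CPM), an adaptor shared with myeloid cells, and the receptor chain Il2rb (29.9 and 15.3 CPM), shared with T cells. Of the defining NK receptors, Klre1, Klra8 and Klrc1 were at 0 counts in all libraries without Dox, as was the homing receptor S1pr5, and Klra8 was also at 0 in all libraries with Dox. With Dox, the means of Klre1, Klrc1 and S1pr5 were 1.59, 5.53 and 2.29 CPM. Klrk1, Klra4, Klra9 and Klri2, the other receptors of the list, had group means of 0.226 to 0.579 CPM without Dox and 0.351 to 3.53 CPM with Dox. The part of NK cells in the level of Gzma was not tested.

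The list written for CD8 T cells holds 6 genes that T cells in general express beside Cd8a and Cd8b1. It summed to 1384 to 1470 CPM without Dox and 101 to 146 CPM with Dox, with 7 of 8 lower, and was led by the T cell receptor genes Cd3d and Trac. Cd8a was at 73.7 ± 5.60 and 5.48 ± 2.34 CPM and Cd8b1 at 81.8 ± 13.9 and 8.61 ± 5.43 CPM (SD, n = 3 each). The 10 markers of leukaemic T progenitors summed to 1137 to 1239 and 208 to 234 CPM, with 9 of 10 lower and 1 higher, and were led by the NOTCH target genes Dtx1 and Hes1. The 6 markers of gamma delta T cells and NKT cells summed to 35.5 to 53.6 and 13.1 to 28.9 CPM, with 3 lower and 1 higher. Trgc2 and Zbtb16 had the highest means over all 6 libraries, not in each group. Gzma was thus high in the libraries where T lineage markers were high, and the part of these cells in its level was not tested. The CD4 T cell list, led by Cd4 and Icos, was 40.7 to 45.6 and 21.0 to 35.8 CPM, with 1 gene higher and 1 lower of 4 tested.

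Markers of several other cell types were higher in the Dox libraries, where Eomes, Nkg7, Ctsw and Klrd1 were higher. The 8 B cell markers summed to 29.2 to 36.6 CPM without Dox and 1681 to 1801 CPM with Dox, and the 8 neutrophil markers to 49.7 to 65.1 and 1985 to 2181 CPM; all 8 of each list rose. Ms4a1 and Pax5 led the B cell list, and S100a9 and S100a8 the neutrophil list. Markers of mast cells and basophils went from 17.3 to 18.2 CPM up to 71.7 to 92.4 CPM, with 3 of 6 tested genes higher. Kit and Mcpt8 had the highest means over all 6 libraries. Mcpt4, a mast cell protease of this list, was at 2.86 and 0.571 CPM (adjusted p = 0.22, edgeR), and Cma1, another mast cell protease, had 6, 7 and 19 counts without Dox and 0 in each Dox library. Those of plasmacytoid dendritic cells, which can hold granzyme B, went from 235 to 287 up to 449 to 457 CPM. Most of that was the widely expressed factor Tcf4. Of 5 tested, 2 rose and 1 fell, Ccr9, the next after Tcf4 by the mean over all 6 libraries. Macrophage markers, led by Vcam1 and C1qa (630 to 755 and 702 to 1059 CPM), overlapped between the groups, with 1 gene higher and 3 lower of 8 tested. Erythroid markers, mostly globins, were 67585 to 75808 and 76556 to 85802 CPM, with 3 genes higher and 2 lower. Within that sum Hba-a1 rose from 30647 to 59079 CPM (adjusted p = 2.97e-05, edgeR) and Hbb-bs fell from 28820 to 12251 CPM (adjusted p = 4.44e-05). Globins belong to families of similar genes, so both values depend on how shared reads were assigned. The part of these cell types in the levels of the 10 genes was not tested.

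**Figure D5:**
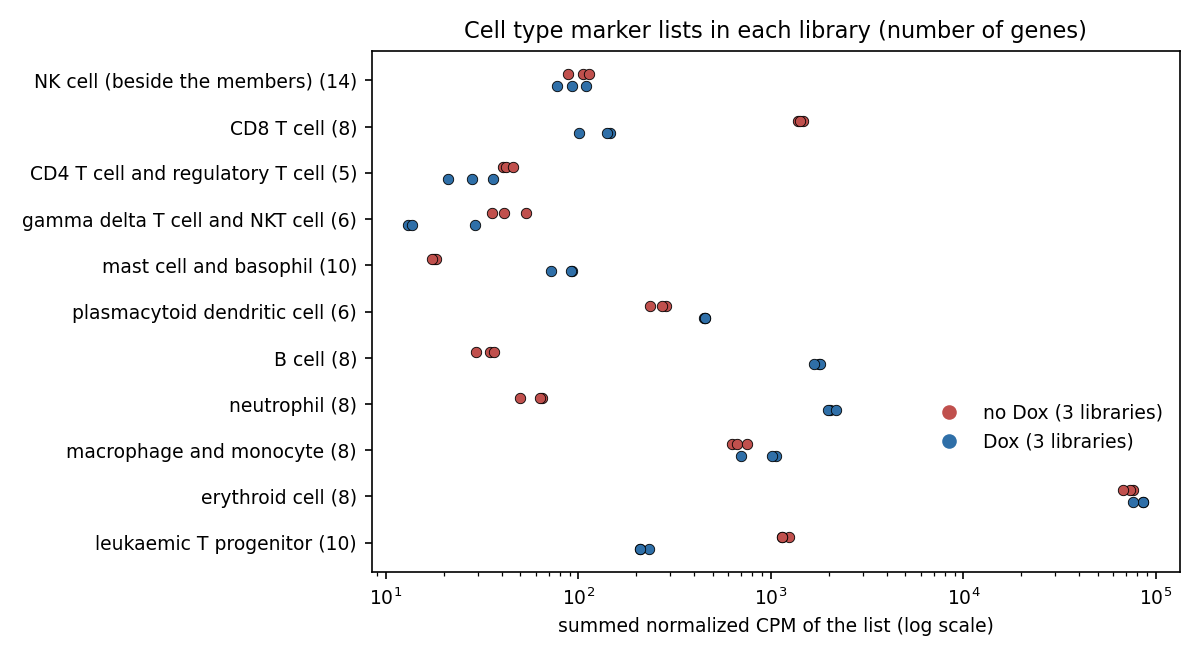
Summed normalized CPM of each marker list in each library (log axis), with the number of genes in parentheses and 1 point per library. The NK list overlaps between groups (88.2 to 113 and 77.1 to 110 CPM), the T lineage lists are higher without Dox, and the B cell and neutrophil lists are higher with Dox.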

How the data were processed

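RNA of 6 mouse spleen libraries, 3 per group by title, was read from the 3′ ends of mRNA (QuantSeq forward kit, per the labels' protocols). The authors deposited raw counts per Entrez gene ID, 1 column per library; 0 other columns of per-sample values were present. STAR, featureCounts and GRCm38 are named in the submitters' processing notes; versions, annotation, strand setting and the handling of multiply mapped reads are not given in the sources used here. Counts are reads, not molecules. Symbols, coordinates and promoters came from RefSeq (GRCm38.p6), and 39374 of 40808 IDs had a symbol. Of 266 list entries, 1 (Zfp683) had no match.

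Low genes were removed by filterByExpr (at its minimum count of 10 and total of 15), libraries were scaled by TMM and tested with the edgeR 4.0.16 quasi-likelihood test in R 4.3.3, with Benjamini-Hochberg adjustment over 14110 genes and a threshold of 0.05. Each SE was derived from the F statistic of its fold change. A fold against a group with 3 counts or fewer in each library uses a floor of 3 counts per library. DESeq2 1.42.0 and limma 3.58.1 (voom) were alternatives, with other scalings, filters and thresholds and each library left out in turn. The fit was also run on simulated data with the same noise in both groups, so that run does not cover the unequal noise found here. No pair of libraries agreed within counting noise (chi-square per degree of freedom at least 6.85).

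The members and lists were chosen with earlier results of these data known. Named genes were the 10 members, in each list the 2 with the highest mean CPM and the called gene with the largest change in each direction, the 10 genes most like Gzma, and in each marker list the 2 with the highest mean CPM. Genes named as called in a list, neighbours of Gzma and Klrd1, Cd8a, Cd8b1, Mcpt4, Cma1, NK markers at or near 0 and those marked so in the text were named after their values were seen. 1 gene that this rule names is not reported here. Proteins are not used here.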

Additional observations from a re-analysis of the deposited data

How the results depend on the processing

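No paired analysis was possible because replicates are numbered 4 to 6 in one group and 10 to 12 in the other. Gzma was at least 790-fold lower with Dox under library size scaling, at least 1074-fold lower without a low-count filter, and 62.9-fold with the floor multiplied by the variance-to-mean ratio. That floor, added after seeing the data, left 2.26-fold to 4.96-fold for Ctsg, Lta, Klrc1, Cd7 and Il12b. Klrd1, Nkg7, Eomes, Ctsw and Gzmb stayed higher and Klrb1c lower with Dox in each alternative that gave a value; the filter of 10 counts in every library and the division by the variance-to-mean ratio gave none for Gzmb, Nkg7, Klrd1, Klrb1c and Eomes. Klrd1 went from 4.03 to 8.0 (log2) without replicate 5, and to 3.35 or 3.37 without replicate 4 or 6, of the group without Dox, Klrb1c from -0.82 to -0.26 without Dox replicate 12, -1.90 without Dox replicate 10 and -1.97 with limma-voom, and Gzmb from 1.28 to 0.37 with limma-voom.

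Over all genes, 3324 were called higher; at an adjusted p under 0.01 this was 2200, a stricter threshold. Higher genes were 51.6% of all calls, 64.3% with library size only. With library size only, granule processing genes were called 5 higher and 0 lower, and effectors 0 lower. Without a low-count filter, 2 granzyme relatives and 2 granule processing genes were called lower and 3 lectin-like receptors higher. With 10 counts in every library, 1 exocytosis gene and 0 effectors were called lower. Tnfsf10 and Sytl3, each with 0 counts in Dox replicate 11, were not tested there and could not be called. That filter left 2 surface receptors and 3 cytokine or homing receptors called higher, and 9 exocytosis genes higher where 6 were. At an adjusted p under 0.01, 0 granule processing genes and 0 effectors were called lower. Counts were also divided by each group's variance-to-mean ratio (4.69 without and 15.6 with Dox), a setting chosen after seeing the data. It tested 8442 genes and only 1 granzyme relative, which was called higher, so no other relative could be called. It left 0 effectors lower, 4 surface receptors higher and 5 transcription factors higher.

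Across the 6 fits that each left out a library, genes called higher ran from 2284 to 3396 and lower from 2459 to 3629. Those called higher and lower ran from 2 to 3 and 1 to 2 for granzyme relatives, 2 to 4 and 1 to 1 for granule processing, 4 to 7 and 2 to 6 for exocytosis, 3 to 3 and 0 to 1 for effectors, 1 to 2 and 0 to 0 for lectin-like receptors, 7 to 8 and 6 to 7 for surface receptors, 3 to 4 and 5 to 5 for signalling, 6 to 9 and 8 to 10 for transcription factors, and 7 to 8 and 4 to 7 for cytokine and homing receptors. Without Dox replicate 12, 6 exocytosis genes and 2 granzyme relatives were called lower; without replicate 4, 5 or 6, 0 effectors were. Kif5b and Coro1a, which passed no threshold, changed sign. Kif5b was -0.11 without a low-count filter, and -0.03, -0.10 and -0.20 without replicate 5, 6 or 12 (range -0.20 to 0.15). Coro1a was -0.013 with RLE and with DESeq2, -0.14 without a filter, -0.034 with limma-voom, -0.000685 without haemoglobin, receptor and mitochondrial genes, and -0.12, -0.15 and -0.31 without replicate 5, 6 or 12 (range -0.31 to 0.18). The cause of these differences was not tested.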
